A study of Mus musculus with 6 samples.

Results

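The 9 genes described here encode p300 (Ep300), its paralog CBP (Crebbp) and 7 other nuclear lysine acetyltransferases, namely the GCN5/PCAF enzymes Kat2a and Kat2b and the MYST enzymes Kat5, Kat6a, Kat6b, Kat7 and Kat8. They were picked by name, as the rows of the deposited count table that carry these symbols, with earlier results of these data known. All 9 were among its 49492 rows, and all 9 passed the filter on low counts that left 15741 genes to test. RNA came from RAW264.7, a mouse macrophage line made by transformation with a leukemia virus. Cells in 3 libraries received an siRNA against Ep300 and carry the genotype label Ep300 silenced, and cells in the other 3 received a negative-control siRNA and carry the label WT. Both groups were transfected for 48 h at 50 nM with the riboFECT CP kit, and stranded mRNA libraries were made. The siRNA is given by its target only, the knockdown is transient, and a single line was used. The comparison asks how the silencing of Ep300 altered gene expression in macrophages. For these 9 genes that means the target itself, its paralog, and the other enzymes that acetylate the same kinds of proteins.

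Lysine acetyltransferases move an acetyl group from acetyl-CoA to lysines of histones and other nuclear proteins. p300 and CBP are large coactivators that transcription factors recruit to enhancers and promoters, where they acetylate histone H3 at lysines that mark active elements. In macrophages they act with NF-kB, AP-1, STAT and interferon regulatory factors. GCN5 and PCAF work inside the SAGA and ATAC complexes, and the MYST enzymes work inside the TIP60, MOZ/MORF, HBO1, MSL and NSL complexes, where partner subunits set which nucleosomes they reach.

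Total counts ran from 29993567 to 37132333 in the Ep300 siRNA libraries and from 35930658 to 45377510 in the control siRNA libraries. The macrophage label matched the markers: all 10 macrophage markers were expressed, and their summed level was 11923 to 12852 CPM (read counts scaled to library size) in Ep300 siRNA libraries and 10539 to 12244 CPM in control siRNA libraries. Lyz2 made up most of these sums, at 8263 CPM on average after Ep300 siRNA and 7471 CPM after control siRNA. None of the 10 macrophage markers passed edgeR's adjusted p of 0.05, and 7 had log2 fold changes above 0. The 12 markers of other cell types together reached 1.87 to 2.32 CPM after Ep300 siRNA and 1.97 to 2.65 CPM after control siRNA, with Epcam and Alb at 0 in all 6 libraries. Ep300 siRNA replicate 1 was the most distant library on the first principal component, at −29.7, where the other libraries of its group were at −13.8 and −8.9 and the controls at 16.8 to 18.8. It also held the most Gm42418, a gene whose span includes ribosomal RNA sequence: 5823 CPM, where the other 5 libraries had 1327 to 2174 CPM. Whether the libraries are separate cultures is not stated, and a p-value here speaks only to the spread among these samples, which may be technical.

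Because Ep300 and Crebbp are paralogs, how alike they are was read from their GENCODE M21 transcripts (GRCm38), 5′ to 3′. The coding sequences of Ep300 (7236 bases) and Crebbp (7323 bases) were identical at 65.4% of 6967 aligned bases. Only 28 of 9548 positions along the Ep300 transcript, 0.293%, began a run of 19 bases that Crebbp also holds, and no run of 50 bases was shared. The annotated transcripts shared 6 runs of at least 19 bases, of which 3 reached 21 bases or more and 5 were coding in both. Only exact runs were searched and the sequence of the siRNA is not given, so whether it could act on Crebbp was not tested. The longest coding runs are printed as the longest exact matches, and their positions are counted from the first base of each coding sequence.
Run of 29 bases, Ep300 bases 3442 to 3470 and Crebbp bases 3556 to 3584: tttgaacaagaaattgaccctgtcatgca
Run of 28 bases, Ep300 bases 3586 to 3613 and Crebbp bases 3700 to 3727: aggtatcatttctgtgagaagtgtttca
Run of 20 bases, Ep300 bases 3361 to 3380 and Crebbp bases 3475 to 3494: tggcttatgttcaacaatgc

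The most alike ungapped stretch of 90 coding bases lies in the part that encodes the TAZ2 zinc-finger domain, with which p300 and CBP bind transcription factors. It was identical at 81 of 90 bases. The 9 bases that differ are in capitals, and they are spread along the stretch, so that no read of 50 bases fits both genes.
Ep300, coding bases 5194 to 5283: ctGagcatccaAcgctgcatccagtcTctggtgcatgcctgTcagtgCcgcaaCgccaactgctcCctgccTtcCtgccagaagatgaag
Crebbp, coding bases 5311 to 5400: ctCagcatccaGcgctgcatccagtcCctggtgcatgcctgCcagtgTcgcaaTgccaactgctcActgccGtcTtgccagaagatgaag

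The target fell in every library. Ep300 lies on chromosome 15 of GRCm38, from 81585351 to 81652077 on the plus strand. It was counted at 1499, 2046 and 2035 reads in Ep300 siRNA replicates 1, 2 and 3, against 4943, 4135 and 4326 reads in control siRNA replicates 1, 2 and 3. Scaled for library size, these were 51.1, 59.0 and 54.9 CPM after Ep300 siRNA and 106.8, 115.3 and 118.4 CPM after control siRNA. The groups did not overlap, and the highest Ep300 siRNA library stood well under the lowest control siRNA library. The log2 fold change was −1.04 ± 0.07 (SE), or 0.485 of control with a 95% interval of 0.436 to 0.54 (edgeR adjusted p = 3.62e-05). Without Ep300 siRNA replicate 1, the library that stood apart, it was −0.985. In bulk RNA, less transcript in each cell and fewer cells with any knockdown cannot be told apart. Across the 15741 genes tested, 6.78% passed the same threshold. Ep300 was 3rd of them by p, while 43 genes had a called fall larger than its own. A small RNA gene annotated inside Ep300 exons on the same strand, Gm23880, held 14, 11 and 14 counts after Ep300 siRNA and 32, 21 and 22 counts after control siRNA, a difference short of the threshold (edgeR adjusted p = 0.252). Whether these counts come from the small RNA or from the Ep300 transcript was not tested.

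**Figure D1:**
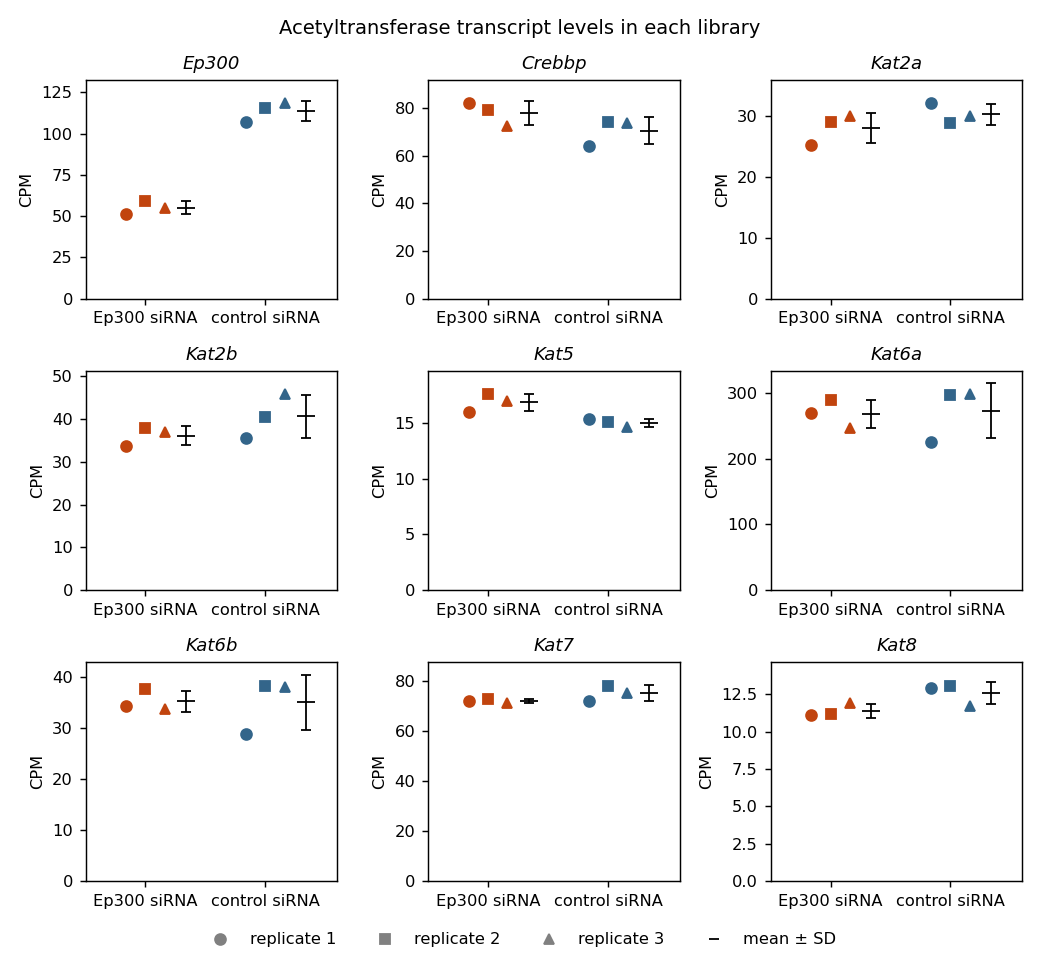
Transcript level of each acetyltransferase in CPM (y axis, from 0) in the 3 Ep300 siRNA libraries (left) and the 3 control siRNA libraries (right); the marker shape gives the replicate, and the black bar the mean ± SD (n = 3). Ep300 falls to 51.1 to 59.0 CPM, against 106.8 to 118.4 CPM in controls, and for the others apart from Kat5 the groups overlap.

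Of the other 8 genes, none passed edgeR's adjusted p, none had an unadjusted p under 0.05, and none passed by DESeq2 or limma-voom. Their median log2 fold change was −0.045, beside −0.004 over all genes tested. The median size of their change regardless of sign was 0.125, beside 0.141 over all genes tested. Taken over all 8 genes, the 95% intervals reached no further than 0.777-fold and 1.26-fold.

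Crebbp, which encodes CBP (chromosome 16, 4081328 to 4213997, minus strand), did not pass the test. It was at 81.9, 79.1 and 72.3 CPM in Ep300 siRNA replicates 1, 2 and 3, against 63.8, 73.9 and 73.6 CPM in control siRNA replicates 1, 2 and 3. The ranges overlapped, since Ep300 siRNA replicate 3 lay under 2 of the controls, and control siRNA replicate 1 was the lowest of all. Its log2 fold change, 0.14 ± 0.07 (SE), had a 95% interval of −0.02 to 0.31 (edgeR adjusted p = 0.293). As a fold, the interval runs from 0.986 to 1.24. Without control siRNA replicate 1, the log2 fold change was 0.08, and without Ep300 siRNA replicate 1 it was 0.113.

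**Figure D2:**
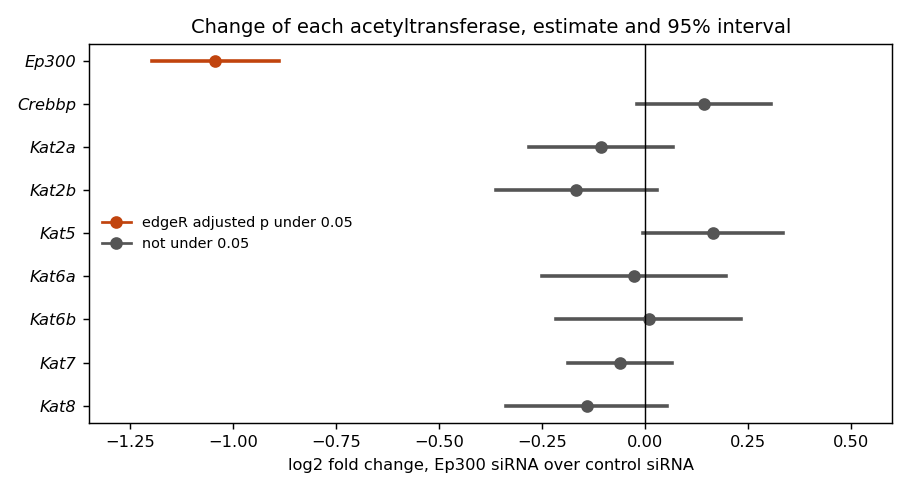
Log2 fold change of each acetyltransferase, Ep300 siRNA over control siRNA (x axis), as the edgeR estimate (point) and its 95% interval (line), with genes down the y axis. The interval of Ep300 lies between −1.20 and −0.89, and those of the other 8 genes include 0.

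Levels of different genes were compared per kilobase of annotated exon, since longer transcripts give more reads. On that scale, Ep300 was at 3.86 ± 0.276 CPM per kilobase after Ep300 siRNA and 7.95 ± 0.422 after control siRNA, and Crebbp was at 5.74 ± 0.364 after Ep300 siRNA and 5.20 ± 0.425 after control siRNA (SD, n = 3 each). The level of Ep300 was thus 4.09 CPM per kilobase lower, and that of Crebbp differed by 0.541. The summed level of the pair was 9.63, 9.98 and 9.19 CPM per kilobase after Ep300 siRNA, against 12.2, 13.5 and 13.7 after control siRNA. The 2 groups of sums did not overlap, and the ratio of their means was 0.73. The share of Ep300 in the pair was 37.2%, 41.4% and 41.9% after Ep300 siRNA, against 61.4%, 59.7% and 60.4% after control siRNA. Per kilobase of exon, Ep300 was thus the more abundant of the pair in every control siRNA library and the less abundant in every Ep300 siRNA library. Measured on the length of the main coding transcript in place of all exons, the share was 41.4% to 46.2% after Ep300 siRNA and 63.8% to 65.4% after control siRNA. On the median length of the annotated coding transcripts, which for Ep300 is only 499 bases, it was 71.8% to 75.6% after Ep300 siRNA and 86.4% to 87.2% after control siRNA. Which of the pair was more abundant after Ep300 siRNA therefore turned with the length used, while the share was lower after Ep300 siRNA than after control siRNA on all 3 lengths. These sums contain the targeted gene, so no test was made on them.

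**Figure D3:**
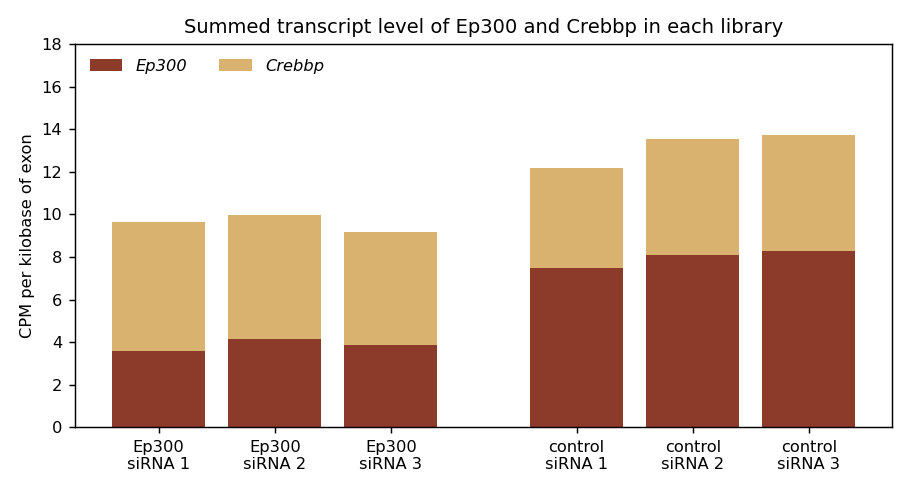
Summed level of Ep300 (dark) and Crebbp (light) in CPM per kilobase of exon (y axis) in each library, with the 3 Ep300 siRNA libraries on the left and the 3 control siRNA libraries on the right. The sums are 9.19 to 9.98 in the Ep300 siRNA libraries and 12.2 to 13.7 in the control siRNA libraries, and the dark part is the smaller one only on the left.

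Neither GCN5/PCAF enzyme passed. Kat2a (GCN5; chromosome 11, 100704746 to 100712465, minus strand), the catalytic subunit of SAGA and ATAC, was at 25.2, 28.9 and 29.9 CPM after Ep300 siRNA and 32.0, 28.7 and 29.9 CPM after control siRNA. The groups overlapped, and the log2 fold change of −0.11 ± 0.08 (SE; edgeR adjusted p = 0.473) was −0.031 without Ep300 siRNA replicate 1. Without control siRNA replicate 1, the highest control, it was −0.058. Kat2b (PCAF; chromosome 17, 53566861 to 53672720, plus strand), which takes the place of GCN5 in the same complexes, was at 33.7, 37.8 and 36.9 CPM after Ep300 siRNA and 35.6, 40.6 and 45.8 CPM after control siRNA. Its groups overlapped too, and its controls were spread widely, with a coefficient of variation of 12.5%. Its log2 fold change, −0.17 ± 0.09 (SE), had a 95% interval of −0.36 to 0.03 (edgeR adjusted p = 0.309). Of the 50-base stretches of its main transcript, 7.75% also occur in the pseudogene Kat2b-ps, which held at most 2 counts in any library.

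Among the MYST enzymes, Kat5 came closest to a change without passing. Kat5 (TIP60; chromosome 19, 5603014 to 5610237, minus strand), which acetylates histone H4 and the ATM kinase in DNA damage signalling, was at 16.03, 17.6 and 17.0 CPM after Ep300 siRNA and 15.4, 15.1 and 14.7 CPM after control siRNA. The groups did not overlap, as was the case for 27.5% of all genes tested. Its log2 fold change, 0.16 ± 0.08 (SE), had a 95% interval of −0.01 to 0.33 (edgeR adjusted p = 0.245). Exons of Kat5 overlap those of Rnaseh2c on the other strand over 426 bases, 12.1% of the exonic length of Kat5, with the strand setting of the counting not given in the sources used here. Rnaseh2c, a subunit of ribonuclease H2, was at 31.8 ± 3.29 CPM after Ep300 siRNA and 30.0 ± 2.94 CPM after control siRNA (SD, n = 3 each) and did not pass either (edgeR adjusted p = 0.665). The part of shared reads in the difference of Kat5 was not tested.

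Kat6a and Kat6b, which encode the paralogs MOZ and MORF that acetylate histone H3, did not pass and shared their pattern over libraries. Kat6a (chromosome 8, 22859535 to 22943259, plus strand) was at 268.6, 288.7 and 246.2 CPM after Ep300 siRNA and 225.4, 296.2 and 297.5 CPM after control siRNA. Kat6b (chromosome 14, 21481434 to 21672478, plus strand) was at 34.3, 37.6 and 33.6 CPM after Ep300 siRNA and 28.9, 38.3 and 38.04 CPM after control siRNA. In both, control siRNA replicate 1 was the lowest of the 6 libraries and the other 2 controls were the highest, so that the Ep300 siRNA libraries fell inside the range of the controls. The log2 fold changes were −0.03 ± 0.10 for Kat6a and 0.01 ± 0.10 for Kat6b (SE; edgeR adjusted p = 0.912 and 0.974). Their signs were not stable: Kat6a was at 0.03, 0.045 and 0.042 without Ep300 siRNA replicate 3, control siRNA replicate 2 or control siRNA replicate 3, and Kat6b was at −0.041 and −0.112 without Ep300 siRNA replicate 2 or control siRNA replicate 1.

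Kat7 (HBO1; chromosome 11, 95274259 to 95310246, minus strand), which acetylates histones H3 and H4 and is tied to DNA replication origins, had the narrowest interval of the 9 genes. It was at 71.8, 72.6 and 71.3 CPM after Ep300 siRNA and 71.9, 78.0 and 75.3 CPM after control siRNA. The groups overlapped at control siRNA replicate 1, and its log2 fold change of −0.06 ± 0.06 (SE) had a 95% interval of −0.19 to 0.06 (edgeR adjusted p = 0.586). Kat8 (MOF; chromosome 7, 127912516 to 127925837, plus strand), which acetylates histone H4 at lysine 16, was the gene with the fewest reads, from 325 to 441 in the Ep300 siRNA libraries and from 429 to 597 in the control siRNA libraries. It was at 11.1, 11.2 and 11.9 CPM after Ep300 siRNA and 12.9, 13.1 and 11.7 CPM after control siRNA. The groups overlapped only at replicate 3 of each, and its log2 fold change of −0.14 ± 0.09 (SE) had a 95% interval of −0.34 to 0.05 (edgeR adjusted p = 0.388).

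Per kilobase of exon, Kat6a was the most abundant of these transcripts in control siRNA cells, at 29.7 ± 4.49 CPM per kilobase (SD, n = 3), above 88.6% of the 15249 genes tested that have an annotated length. Kat7 followed at 13.6 ± 0.554, and its controls lay wholly under those of Kat6a. Kat2a at 8.68 ± 0.483, Kat2b at 8.35 ± 1.04 and Ep300 at 7.95 ± 0.422 CPM per kilobase could not be set in order, because the control ranges of neighbours overlapped. Crebbp came next at 5.20 ± 0.425, then Kat8 at 4.35 ± 0.251 and Kat5 at 4.29 ± 0.102, whose ranges overlapped each other. Kat6b was the least abundant, at 2.08 ± 0.319 CPM per kilobase, above 35.2% of genes. Ep300 stood lower in this order after its siRNA: it was above 48.9% of genes in Ep300 siRNA cells, against 65.7% in control siRNA cells. This order depended on the length used. When levels were divided by the length of the main coding transcript, a length chosen after the data were seen, Kat6a (30.0 ± 4.52) and Kat7 (22.0 ± 0.898) led and Kat6b (4.55 ± 0.698) was last in control siRNA cells. Ep300 then came after Kat7 (11.9 ± 0.629), and Crebbp (6.51 ± 0.532) overlapped Kat5 just above Kat6b. On median transcript lengths, Ep300 led at 227.4 ± 12.1 CPM per kilobase in control siRNA cells, followed by Kat2b at 60.4 ± 7.53, then Crebbp at 34.7 ± 2.83 and Kat6a at 30.1 ± 4.54, whose ranges overlapped, then Kat7 at 22.3 ± 0.91. Kat6b was the least abundant of the 9 on all 3 lengths.

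**Figure D4:**
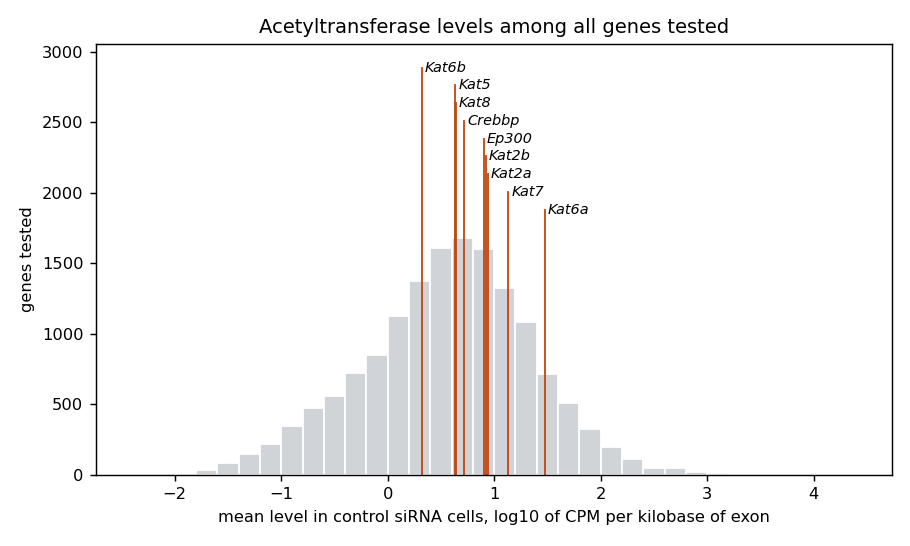
Mean level of all genes tested in control siRNA cells (grey, number of genes on the y axis) against the log10 of CPM per kilobase of exon (x axis), with a line at the level of each acetyltransferase; line height has no meaning. Kat6a lies above 88.6% of genes and Kat6b above 35.2%, with the other 7 between them.

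The summed level of all 9 genes was 76.0 to 81.7 CPM per kilobase after Ep300 siRNA and 76.8 to 88.2 after control siRNA, and these ranges overlapped. The p300/CBP pair made up 12.1% to 12.6% of that sum after Ep300 siRNA and 15.5% to 15.9% after control siRNA. The 7 enzymes other than the pair summed to 68.5 ± 2.84 CPM per kilobase after Ep300 siRNA and 71.1 ± 5.57 after control siRNA (SD, n = 3 each), a difference within the spread of the controls.

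The proteins around these enzymes were described with 7 lists of partner subunits, other acetyltransferases and enzymes that supply acetyl-CoA, which held 103 different genes. Of the 98 that could be tested, 1 rose and 4 fell. Over all genes tested, 2.76% rose and 4.02% fell. Of 60 subunits of the SAGA, ATAC, TIP60, MOZ/MORF, HBO1, MSL and NSL complexes, 1 rose and none fell, with a median log2 fold change of 0.022. The lists with no call by edgeR also had none by DESeq2 or limma-voom, except 2 rises among TIP60 subunits by DESeq2.

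All 4 falls were among transcription factors and regulators that bind p300 or CBP. Of the 22 listed, 18 could be tested, and 4 fell, none rose and 14 did not pass (median 0.03). Of all genes tested, 4.02% fell. In this list 11 log2 fold changes were above 0, and the list was chosen with earlier results of these data known. Hif1a, the oxygen-regulated factor whose activation domain binds the TAZ1 domain of p300, was at 134.3, 141.1 and 142.9 CPM after Ep300 siRNA and 183.0, 197.9 and 195.2 CPM after control siRNA. Cited2, which competes with HIF-1 for that same domain, fell beside it, at 181.9, 203.1 and 207.6 CPM after Ep300 siRNA and 258.5, 254.1 and 272.3 CPM after control siRNA. The log2 fold changes were −0.46 ± 0.06 for Hif1a and −0.41 ± 0.07 for Cited2 (SE; edgeR adjusted p = 0.00136 and 0.00496). Jun, a subunit of AP-1, was at −0.43 ± 0.06 (SE; edgeR adjusted p = 0.00257). Ets2, an ETS-family factor named after its values were seen because it completes the 4, was at −0.28 ± 0.06 (SE; edgeR adjusted p = 0.0186). The call of Ets2 was lost when replicate 1 or 2 of the Ep300 siRNA group, or replicate 2 or 3 of the controls, was dropped (edgeR adjusted p up to 0.0804), and those of Hif1a, Cited2 and Jun held in each of the 15 alternative fits. Creb1, the factor after which CBP is named, did not pass (48.8 ± 2.31 CPM after Ep300 siRNA and 50.6 ± 1.86 CPM after control siRNA, SD, n = 3 each; edgeR adjusted p = 0.687). Stat2, an interferon-response factor, had a log2 fold change of 0.53 ± 0.15 (SE) without passing (edgeR adjusted p = 0.0552), with 128.9, 196.2 and 185.4 CPM after Ep300 siRNA and 96.3, 125.7 and 132.6 CPM after control siRNA. Creb1 and Stat2 were likewise named after their values were seen.

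Of 24 subunits of SAGA and ATAC, none passed edgeR's test (median 0.03). The nearest was Taf10, a histone-fold subunit, at 0.22 ± 0.07 (SE; edgeR adjusted p = 0.0936). Of 17 subunits of the TIP60 complex, none passed (median 0.04). Yeats4, its histone acyl-lysine reader, was at 79.9 ± 4.62 CPM after Ep300 siRNA and 68.6 ± 2.23 CPM after control siRNA (SD, n = 3 each; edgeR adjusted p = 0.0604). Of 9 scaffold and reader subunits of the MOZ/MORF and HBO1 complexes, 1 rose and none fell (median 0.05). That gene was Brpf3, a scaffold that pairs with HBO1, at 29.2, 27.5 and 26.8 CPM after Ep300 siRNA and 20.1, 23.2 and 23.0 CPM after control siRNA. Its log2 fold change was 0.33 ± 0.08 (SE; edgeR adjusted p = 0.0268), a call that was lost with any 1 of the 6 libraries left out (edgeR adjusted p up to 0.079).

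Of 13 subunits of the MSL and NSL complexes of Kat8, none passed. Nearest to passing was Msl2, a RING-finger subunit, at −0.15 ± 0.06 (SE, edgeR adjusted p = 0.165). This list had the lowest median of the 7, −0.08, with 3 of 13 log2 fold changes above 0. The median over all genes tested was −0.004, and that of the list ran from −0.117 to −0.045 over the 15 alternative fits. Of 11 other acetyltransferases tested, none passed (median −0.04). Nearest among them was Esco2, which acetylates cohesin in S phase, at −0.26 ± 0.08 (SE, edgeR adjusted p = 0.0834). Of 9 genes of acetyl-CoA supply, none passed (median −0.03). Acss1, a mitochondrial acetyl-CoA synthetase, had a log2 fold change of −1.52 ± 0.47 (SE; edgeR adjusted p = 0.0785) at very low levels, 0.154 ± 0.0816 CPM after Ep300 siRNA and 0.458 ± 0.0901 CPM after control siRNA (SD, n = 3 each).

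**Figure D5:**
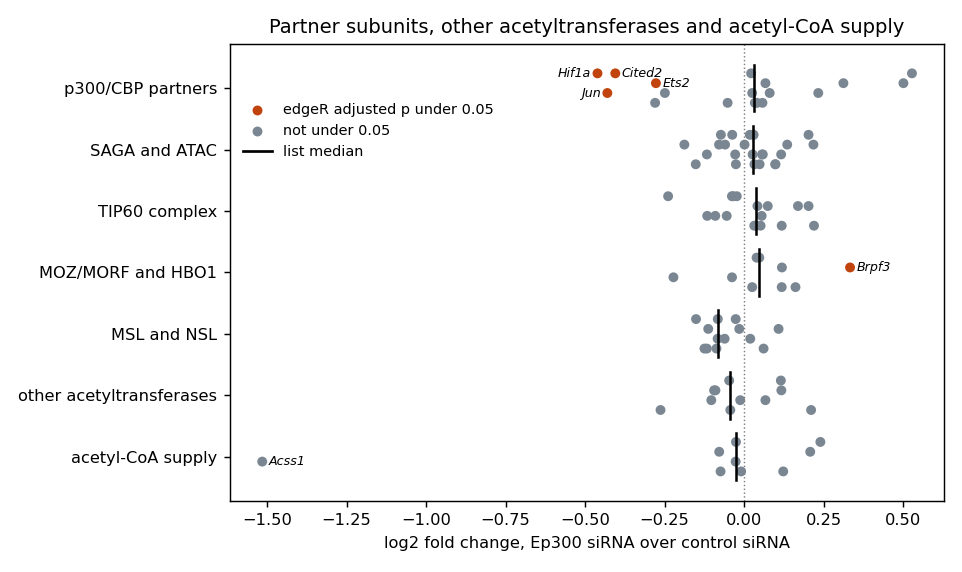
Log2 fold change, Ep300 siRNA over control siRNA (x axis), of each tested gene of the 7 lists (rows); black bars are list medians and colour marks an edgeR adjusted p under 0.05. The 4 genes that fell are among the 18 tested partners of p300 or CBP, a list whose median is 0.03. The 1 that rose is Brpf3, and list medians lie between −0.08 and 0.05.

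The genes whose levels followed Ep300 most closely over the 6 libraries were Slc6a12, Zfp69, Pgap1, Qser1 and Crlf3, with Pearson's r of log2 CPM from 0.997 to 0.999 among 9223 genes averaging at least 5 CPM. Because the groups stand apart in Ep300, any gene that is even across each group and lower after Ep300 siRNA scores highly, and size plays no part. Slc6a12, a betaine and GABA transporter, was at 86.1, 93.0 and 92.1 CPM after Ep300 siRNA and 145.5, 152.0 and 158.7 CPM after control siRNA, a log2 fold change of −0.75 ± 0.06 (SE; edgeR adjusted p = 0.000108). Pgap1, a remodelling enzyme of GPI anchors, was at −0.46 ± 0.08 (SE; edgeR adjusted p = 0.00464) and Qser1, a chromatin protein, at −0.33 ± 0.06 (SE; edgeR adjusted p = 0.00674). Zfp69 and Crlf3 did not pass (edgeR adjusted p = 0.159 and 0.087). For Crebbp, the closest were Vps13c, Fam177a, Ap3b1, Arhgap30 and Ripk1, with r from 0.984 to 0.994. None of these 5 passed edgeR's test, and in each control siRNA replicate 1 was the lowest library, as it was for Crebbp. They were picked for their likeness to Crebbp over the same 6 libraries, so a shared lowest library follows from the choice.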

How the data were processed

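The authors deposited unnormalized read counts by gene symbol in 1 table, whose columns were matched to libraries by name. The submitters' processing notes list the build GRCm38 and the tools STAR 2.5.3a, fastp 0.23.4, edgeR 3.12.1 and featureCounts, with the annotation, the strand, multimapping and mate settings and any use of molecular identifiers not given in the sources used here. Of counts from 1 to 4, 79.8% to 80.9% per library were even, so halved counts were an alternative.

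Genes were tested with edgeR 4.0.16 (R 4.3.3) on the counts as deposited: the quasi-likelihood test (two-sided, Ep300 siRNA over control siRNA) after filterByExpr and TMM scaling, with Benjamini-Hochberg adjustment over 15741 genes and a threshold of 0.05. Standard errors were derived from each log2 fold change and its F statistic. CPM use TMM-scaled library sizes. PCR copies are not independent molecules, and the spread of 3 libraries per group sets the precision. Gene positions, lengths and transcripts come from GENCODE M21 (GRCm38), which held 47229 of the symbols; the main coding transcript is the one with the longest coding sequence. Coding sequences were aligned with MAFFT 7.526, and figures were drawn with matplotlib 3.10.9. The edgeR step was tested on simulated counts, where 18 of 187 calls were false. It recovered 62% of 50 genes planted at 1.5-fold, 82% of 50 at 2-fold and 96% of 50 at 8-fold.

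The members and lists were chosen with earlier results of these data known. Genes named from the lists are those with the smallest p past the threshold in each direction, with up to 2 further calls, or the smallest p where none passed; the 5 genes most like Ep300 and Crebbp leave out predicted genes and accession-style symbols. The alternatives tried were 3 other scalings (RLE, upper quartile, library sizes alone), 2 other filters, DESeq2 1.42.0, limma-voom (limma 3.58.1), a replicate-number block, halved counts, each library left out, a threshold of 0.01, and other lengths.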

Additional observations from a re-analysis of the deposited data

How the results depend on the processing

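Ep300 passed in each of 15 alternative fits (log2 fold change −1.095 to −0.985, adjusted p up to 0.00106), and none of the other 8 genes passed in any of them (smallest adjusted p 0.0843, Kat2b without control siRNA replicate 1). Signs turned for Kat6b with library sizes alone (−0.025) and for Kat6a and Kat6b when libraries were left out (−0.144 to 0.045 and −0.112 to 0.086). The 1068 genes changed became 1721 when low counts were not filtered (the cause was not tested), 369 at an adjusted p under 0.01, and, with fewer samples, 698, 533 and 696 without Ep300 siRNA replicate 1, 2 or 3 and 1054, 490 and 593 without control siRNA replicate 1, 2 or 3. A threshold of 0.01 is stricter by construction. DESeq2 called 1367, of which 1016 were among the 1068, and the replicate block, the fit with the replicate number as a term, called 1357 and changed the call of none of the 9 genes. Deviations of samples with the same number had correlations of 0.09, 0.02 and −0.05, and the best match was the own number only for replicate 1. With 3 samples per group, these values cannot decide whether the number is a pairing, and the labels do not state one. Library sizes alone moved the median of all genes by −0.034 and gave 316 rising and 788 falling genes, beside 435 and 633. Among the lists, calls beyond those reported appeared in some alternatives, such as 2 rises among p300 and CBP partners under the replicate block; the causes were not tested.

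The ratio of the summed Ep300 and Crebbp levels, 0.73, was 0.567 on median transcript lengths, and that of all 9 genes, 0.927, was 0.706; that median is taken over many short fragments (499 bases for Ep300), so those lengths raise the weight of Ep300 and put it first in the order of levels. The length of the main coding transcript was chosen as an alternative after the data were seen. With a library left out, the ratios ran from 0.704 to 0.746 and from 0.888 to 0.95. Kat8 had the fewest reads of the 9 genes, 325 to 597 per library.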

Other observations

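Control siRNA replicate 1 was the lowest control for 6 of the 9 acetyltransferases, Ep300, Crebbp, Kat2b, Kat6a, Kat6b and Kat7. It was not the lowest for Kat2a, Kat5 and Kat8, which have the shortest exonic lengths of the 9 (2891 to 3509 bases). The share of all genes tested for which this library was the lowest control is not given here. On the log2 scale its distance from the mean of the 3 controls was −0.403 for Kat6b, −0.397 for Kat6a, −0.274 for Kat2b, −0.209 for Crebbp, −0.13 for Ep300 and −0.092 for Kat7, an order that does not follow exonic length (14273 bases for Ep300 and 4867 for Kat2b). Over all protein-coding genes tested, split by exonic length into 4 bins, its median distance from that mean was 0.071 in the bin with the shortest genes and −0.055 in the bin with the longest. Ep300 siRNA replicate 2 ran the other way from the mean of its group, at −0.062 in the bin with the shortest genes and 0.03 in the bin with the longest. In the same 2 bins, Ep300 siRNA replicates 1 and 3 were at 0.041 and 0.005 and at 0.034 and −0.033. Control siRNA replicates 2 and 3 were at −0.025 and 0.032 and at −0.039 and 0.033. Because each distance is from the mean of the own group, libraries of a group offset each other. These are descriptions of single libraries, and the cause was not tested.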
